A study of Homo sapiens with 24 samples.

Results

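OCI-LY3 is an established human diffuse large B-cell lymphoma (DLBCL) line, and the regions described here are those whose chromatin accessibility differed between OCI-LY3 cells treated for 3 h with AZD4573, an inhibitor of the transcription kinase CDK9, and the same cells at 0 h. The members were all regions that the authors listed as more accessible (opened, 1852 regions) or less accessible (closed, 1677 regions) in this comparison, 3529 of the 26369 distinct regions in the 8 lists of the series. The series measured accessibility by ATAC-seq, in which a transposase cuts and tags accessible DNA, in 24 libraries of OCI-LY3 and VAL, another DLBCL line, at 0, 3 and 8 h of AZD4573 at 30 nM. Each line and time had 4 libraries, 2 prepared by the standard protocol with 50000 cells and 2 by Fast-ATAC, for which the sample characteristics give 5000 cells and the extraction text 50000. The 0 h libraries are the control, which the deposited lists call DMSO. The lists hold coordinates on hg19 and no value per library, so sequencing depth, the spread between libraries and the values under each library protocol are unknown. All OCI-LY3 libraries come from 1 cultured line, the labels do not say whether replicates were separate cultures, and the design text places OCI-LY3 in the germinal-centre class of DLBCL and VAL in the activated B-cell class. OCI-LY3 is widely used as an activated B-cell model, so these classes are given only as that text has them, and no result here rests on them.

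CDK9, with a T-type cyclin, forms P-TEFb, the kinase that releases RNA polymerase II from its pause just past the transcription start site (TSS) and allows it to elongate through the gene. Without it, polymerase is held near promoters, genes are transcribed less along their length, and transcripts with short half-lives, such as those of MYC and MCL1, are lost first. In B cells the lineage programme is kept by factors such as PAX5, EBF1, PU.1, SPIB, OCT2 with its coactivator POU2AF1, and the E proteins TCF3 (E2A) and TCF4, many of which bind enhancers far from promoters.

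Opened and closed regions lay in different parts of the genome. A promoter region was one within 1000 bp of an annotated TSS, and all others were called distal. Of the opened regions 1074 of 1852 (58.0%, 95% Wilson interval 55.7 to 60.2) were at promoters, against 253 of 1677 closed regions (15.1%, 13.5 to 16.9). The difference of 42.9 percentage points passed a two-sided Fisher's exact test over regions (odds ratio 7.77, Benjamini-Hochberg adjusted p = 8.59e-160 over 5 tests) and opened regions had the larger share on 20 of 22 autosomes. Regions on 1 chromosome are not independent replicates, so these p-values describe regions and not libraries. The other 22840 regions of the series had 27.8% at promoters, between both groups. Promoter regions were not counted in any other class. Closed regions lay mostly in introns (48.4%) and between genes (30.7%). Regions outside promoters with their midpoint in an exon were 5.90% of closed and 1.89% of opened regions. Opened regions were wider, with a median of 1506 bp against 1267 bp. The medians were 1638 and 1395 bp at promoters but close, 1261 and 1246.5 bp, among distal regions. The central 200 bp of the opened regions had a median GC content of 60% and that of closed regions 46%, which moved with the promoter share, and the part of GC content in the difference was not tested.

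**Figure D1:**
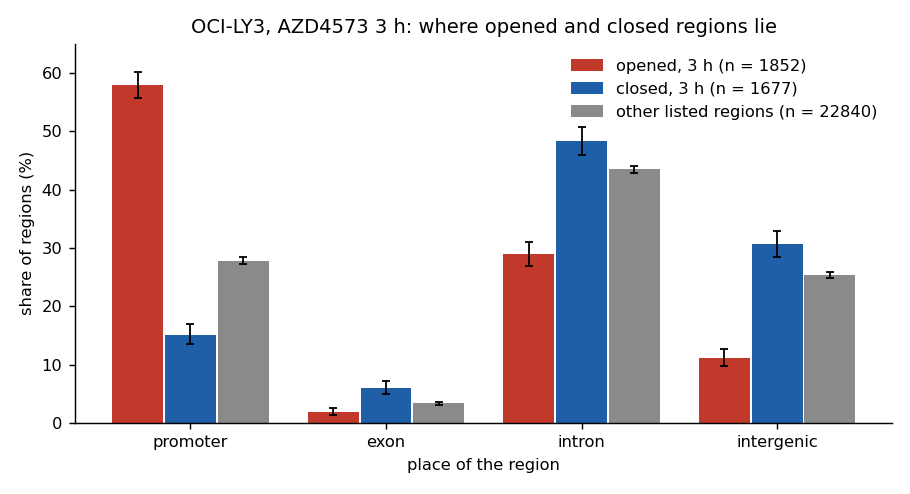
Share of regions (%) at promoters, in exons, in introns and between genes for the 1852 opened, the 1677 closed and the 22840 other listed regions, with 95% Wilson intervals that cover counting error only. Promoters hold 58.0% of opened and 15.1% of closed regions, and introns hold 29.0% and 48.4%. Promoter regions are not counted in the other classes.

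The sequences below show matches of the motifs counted further on, at named genes. They are examples and not typical of their groups, since each of these motifs is absent from most windows of its group. Each is the plus strand of GRCh37 (hg19), cut to 30 bases on either side of a motif in the central 200 bp of a region, outside annotated exons, with every match of that motif in capitals. They were picked after the results were seen, from genes described further on. The first set comes from opened promoters. RPL18 encodes a ribosomal protein and HSP90AB1 a heat shock chaperone, and both carry the cyclic AMP response element TGACGTCA, at -50 and -131 bp from the TSS, at chr19:49122455-49122522 and chr6:44214677-44214744. INTS3 (Integrator, chr1:153700451-153700517) and DNAJA1 (a co-chaperone, chr9:33025182-33025248) carry the ETS motif CCGGAAG, written here as its reverse complement. The genes ZNF615 (chr19:52511503-52511571) and ZNF253 (chr19:19976931-19976999) encode zinc finger proteins and carry the YY1 motif AAGATGGCG on opposite strands.
RPL18: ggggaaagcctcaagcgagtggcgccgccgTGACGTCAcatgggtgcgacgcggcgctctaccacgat
HSP90AB1: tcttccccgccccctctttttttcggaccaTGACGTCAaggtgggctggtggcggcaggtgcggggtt
INTS3: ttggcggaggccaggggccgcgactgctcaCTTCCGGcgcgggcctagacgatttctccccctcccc
DNAJA1: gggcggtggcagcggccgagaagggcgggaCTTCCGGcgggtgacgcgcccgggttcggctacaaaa
ZNF615: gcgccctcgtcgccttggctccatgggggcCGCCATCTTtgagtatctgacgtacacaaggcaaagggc
ZNF253: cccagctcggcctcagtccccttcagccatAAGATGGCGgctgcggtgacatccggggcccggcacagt

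The second set comes from opened distal regions with the E-box CAGGTG, which reads CACCTG on the other strand and is the form bound by E proteins and by ZEB1. Shown are ITPKB, which encodes an inositol trisphosphate kinase of lymphocytes (intron 2, chr1:226921486-226921551), BCL2L1, which encodes the anti-apoptotic BCL-XL (intron 2, chr20:30293691-30293756), and IRF8, a transcription factor of germinal-centre B cells (intron 3, chr16:85944333-85944398). CXCR5, which encodes the B-cell follicle homing receptor (intron 1, chr11:118763252-118763317), DTX1, which encodes a regulator of NOTCH (intron 2, chr12:113502969-113503034), and MEF2C, a B-cell transcription factor (intron 2, chr5:88115336-88115401), complete it.
ITPKB: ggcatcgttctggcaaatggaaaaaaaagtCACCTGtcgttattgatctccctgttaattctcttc
BCL2L1: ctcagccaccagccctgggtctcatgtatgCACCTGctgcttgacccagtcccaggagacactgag
IRF8: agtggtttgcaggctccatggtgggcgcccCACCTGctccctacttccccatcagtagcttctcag
CXCR5: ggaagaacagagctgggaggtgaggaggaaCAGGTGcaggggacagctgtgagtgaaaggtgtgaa
DTX1: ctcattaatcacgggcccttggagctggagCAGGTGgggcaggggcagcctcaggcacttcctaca
MEF2C: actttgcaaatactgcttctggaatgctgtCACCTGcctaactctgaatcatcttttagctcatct

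The third set comes from closed distal regions. The octamer in it was found in 4.21% of closed and 5.27% of opened distal windows. PAX5, the factor that commits cells to the B lineage (intron 4, chr9:37004627-37004694), and EBF1, its partner (chr5:158122712-158122779), are shown with the octamer ATGCAAAT. AFF3, which encodes a nuclear protein of lymphoid cells (chr2:100794832-100794899, upstream of the canonical TSS), holds 2 octamers. The invariant chain gene CD74 (chr5:149780900-149780967, just past the end of the gene) and BACH2, a repressor of plasma cell differentiation (intron 3, chr6:90928490-90928557), are shown with the interferon regulatory factor (IRF) motif AANNGAAA.
PAX5: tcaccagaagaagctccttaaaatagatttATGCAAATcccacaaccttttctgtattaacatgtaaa
EBF1: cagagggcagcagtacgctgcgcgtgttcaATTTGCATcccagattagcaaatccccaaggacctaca
AFF3: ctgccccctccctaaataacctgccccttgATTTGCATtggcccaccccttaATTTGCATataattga
CD74: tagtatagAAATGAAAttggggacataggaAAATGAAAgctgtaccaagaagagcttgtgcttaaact
BACH2: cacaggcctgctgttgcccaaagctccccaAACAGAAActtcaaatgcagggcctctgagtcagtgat

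Opened promoters included those of many ribosomal, proteasome and RNA polymerase II machinery genes. An opened region lay within 1000 bp of a TSS of 1193 of 20136 protein-coding genes (5.92%) and a closed region of 140 (0.695%), and no gene had both. Counts over gene lists are descriptions of these lists, to be read against 5.92%, without a test. The share was 18.3% among the 6535 genes with a promoter region in any list of the series and 13.8% among the 1480 genes of chromosome 19.

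Ribosomal protein genes had an opened promoter in 24 of 88 cases (27.3%, Wilson interval 19.1 to 37.4), among them RPL11 (chr1:24017771-24019233) and RPS2 (chr16:2014067-2015799), and no closed one. A closed region in the gene or within 10000 bp of it was found for 28 of 88 (31.8%, against 7.15% of all protein-coding genes) and an opened one for 30 (34.1%, against 12.3%). Off chromosome 19 the count of opened promoters was 18 of 75 (24.0%). In VAL at 3 h, 32 of 88 had an opened promoter, where the share of all protein-coding genes was 10.3%, and 16 genes had one in both lines. The other 8 of the 24 were opened in OCI-LY3 and not in VAL at 3 h, with RPL14, RPL36A and RPL37 as examples. Mitochondrial ribosomal protein genes gave 18 of 78 (23.1%), with MRPL12, MRPL20 and MRPS7 as examples. Proteasome genes gave 11 of 48 (22.9%), including PSMB9 (chr6:32820668-32822758), an immunoproteasome subunit, and PSMD4 (chr1:151226724-151228070), a ubiquitin receptor of the proteasome. For PSMC2 and PSME3 the region did not lie over the TSS of the canonical transcript.

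Some genes of the machinery on which CDK9 acts had an opened promoter. The pausing factors and Integrator had 7 of 25 (28.0%, 14.3 to 47.6), namely the negative elongation factor subunits NELFB (chr9:140149073-140150406) and NELFE (chr6:31926044-31927419), SUPT5H (chr19:39935423-39937068), which encodes the DSIF subunit SPT5, SUPT6H, and the Integrator subunits INTS3, INTS5 and INTS11. Of these 7, INTS3 was the only one not opened in VAL at 3 h. General initiation factors and polymerase II subunits had 9 of 51 (17.6%), among them POLR2E, POLR2G and TAF6, and Mediator had 5 of 33 (15.2%), namely MED8, MED17, MED22, MED25 and MED28. The promoter region of MED22 is also that of RPL7A, which lies head to head with it. Other named promoter regions may be shared too, since 14.2% of the opened ones held a canonical coding TSS on each strand. P-TEFb and its partners had 2 of 20 (10%, 2.79 to 30.1, an interval that holds 5.92%; 1 of 17 off chromosome 19), namely CDK12, a kinase of the same residue of the polymerase tail, and MLLT1, a subunit of the super elongation complex. CDK9 itself had none. SR and hnRNP splicing factors had 6 of 38 (15.8%), including SRSF2, SRSF7 and HNRNPM.

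Zinc finger genes on chromosome 19, most of which encode transcriptional repressors in tandem clusters, had an opened promoter in 51 of 260 cases (19.6%, 15.2 to 24.9), ZFP36, which encodes an RNA-binding protein of another kind, included. Chromosome 19 as a whole had 13.8%, and zinc finger genes on other chromosomes had 29 of 305 (9.51%). In VAL the chromosome 19 list had 35 of 260 (13.5%), 19 of them shared.

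**Figure D2:**
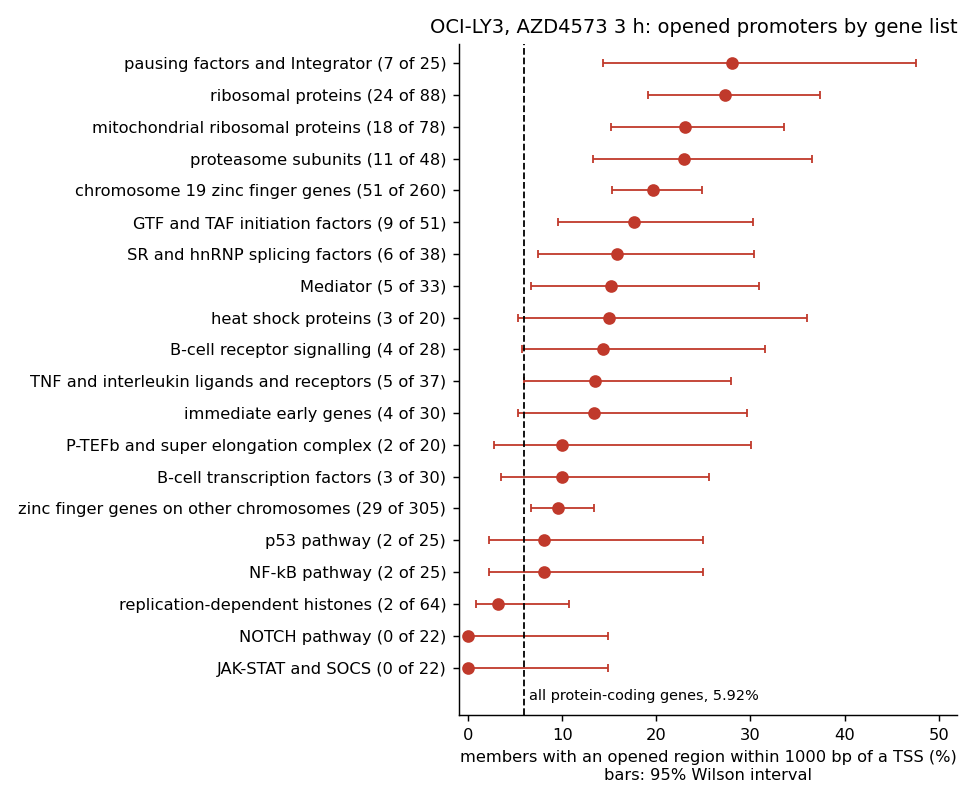
Share of members (%) with an opened region within 1000 bp of a TSS for the gene lists of 20 or more members, with 95% Wilson intervals. The dashed line is the share of all protein-coding genes, 5.92%, and the lists farthest to the right are the pausing factors with Integrator (28.0%), ribosomal proteins (27.3%), mitochondrial ribosomal proteins (23.1%) and proteasome subunits (22.9%).

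Opened promoters were also found among survival and signalling genes. Of the 30 immediate early genes 4 did, MCL1 (chr1:150551149-150552771), which encodes a short-lived anti-apoptotic protein, DUSP2, PPP1R15A and ZFP36. This was 13.3% (5.31 to 29.7), and 2 of 26 (7.69%) off chromosome 19. Of 14 AP-1 factors, JUNB and MAFK did (14.3%, 4.01 to 39.9), and off chromosome 19 it was 1 of 11. The intervals of both lists hold 5.92%. The JUNB region (chr19:12902033-12905000) was 2968 bp wide, covered the whole single-exon gene and its TSS, and was the second widest of all opened regions. It was also opened in VAL at 3 h. In the BCL2 family, MCL1 and the pro-apoptotic BAX (chr19:49457652-49458980) and BAK1 (chr6:33547247-33548688) had opened promoters. This was 3 of 15 (20%, 7.05 to 45.2), and 2 of 13 off chromosome 19. BCL2L1 had 2 opened regions in its intron 2, of which 1 was also opened in VAL at 3 h and the other, at chr20:30293426-30294145, was not. Of the p53 targets CDKN1A had 1 opened region in intron 1 (chr6:36649800-36651112) and none at its TSS. PIM2 (chrX:48774356-48777026) was the opened member of the 3 PIM kinases, while PIM1 and PIM3 had no region in either list. The TNF locus on chromosome 6 opened over 3 adjacent promoters, LTA (chr6:31539562-31540745), TNF (chr6:31542853-31544276) and LTB (chr6:31548232-31550760), of which LTB alone was opened in VAL at 3 h. Of 13 genes chosen from those the study names, 6 had an opened region in the gene or within 10000 bp of it (BCL2L1, CDKN1A, DTX1, IRF8, JUNB and MCL1), 2 a closed one (MYC and PIK3AP1), and CXCR4, BBC3, PLCG2, PIM1 and PIM3 none. Over all protein-coding genes 12.3% had such an opened region and 7.15% such a closed one, and counts in or near genes are to be read against these shares. In the p53 list BAX and GADD45B had an opened promoter in OCI-LY3 (2 of 25, 8%, 2.22 to 24.97). Both lie on chromosome 19, and off it the count was 0 of 22. VAL at 3 h had 10 of 25 (40%), where the share of all protein-coding genes was 10.3%. Replication-dependent histones, H2AC8 and H3C10, gave 2 of 64 (3.12%, 0.861 to 10.7), an interval that holds the 5.92% of all genes. In VAL the histone list gave 11 of 64 (17.2%, against 10.3% of all genes there). Among heat shock genes DNAJA1, HSF1, the master regulator of the heat shock response, and HSP90AB1 opened at the promoter. This was 3 of 20 (15%, 5.24 to 36.0), an interval that holds 5.92%. No gene of the JAK-STAT (0 of 22), NOTCH (0 of 22) or MYC (0 of 13) lists had an opened promoter. The Wilson intervals reach 14.9%, 14.9% and 22.8%, so all 3 hold the 5.92% of all genes. In the NOTCH list 5 of 22 genes (22.7%, against 12.3% of all genes) had an opened region in or near them, DTX1, DTX3, MAML3, NOTCH3 and NOTCH4, and MAML2 a closed one.

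B-cell genes were found in both lists. At promoters, the antigen receptor subunit gene CD79B (chr17:62008511-62010597), the factors SPI1 (PU.1, chr11:47398309-47400580), SPIB (chr19:50920577-50923199) and MEF2B (chr19:19279844-19281729), and HLA-DRA opened. These were 3 of 30 B-cell transcription factors (10%, 3.46 to 25.6) and 1 of 15 MHC class II genes (6.67%), against 5.92% of all genes. SPIB and MEF2B lie on chromosome 19, and off it the transcription factors had 1 of 26 (3.85%). Of the B-cell transcription factors, 10 of 30 had a closed region in the gene or within 10000 bp of it, against 7.15% of all protein-coding genes, and 8 of 30 an opened one, against 12.3%. None of the 10 closed at the promoter. As a check of the label, 3 of 7 B-cell markers had an opened and 2 a closed region in or near them, with CD79B opened, PAX5 closed and MS4A1 in both lists. No region lay near any of 7 T-cell or 4 epithelial markers, and 1 lay near each of LYZ (myeloid) and KLF1 (erythroid). The lists hold only regions that differed, so this says nothing of the level of accessibility.

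**Figure D3:**
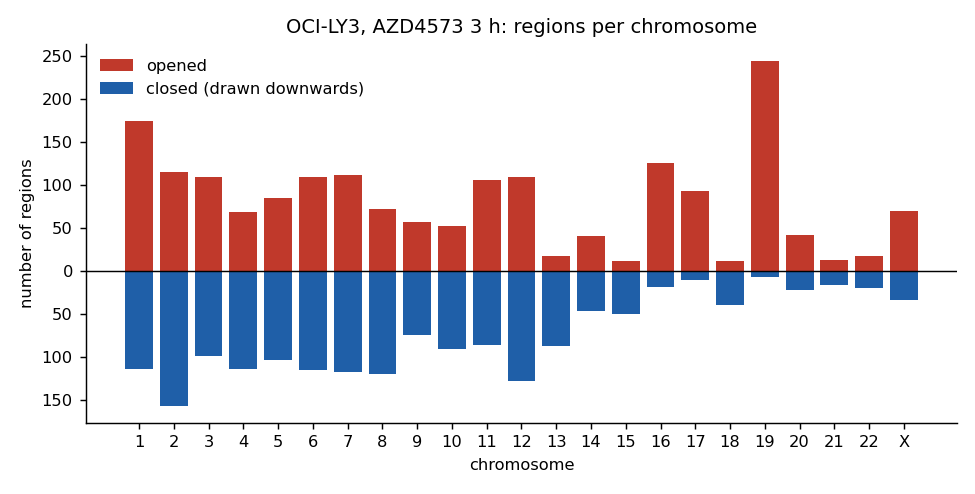
Number of opened (upwards) and closed (downwards) regions on each chromosome; chromosome Y, with 1 opened region, is left out. Chromosome 19 has 244 opened and 7 closed regions, and chromosomes 13 and 18 have 17 and 11 opened against 88 and 40 closed.

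The direction differed between chromosomes. On chromosome 19 there were 244 opened and 7 closed regions (97.2% opened). The opened share was 89.4% on chromosome 17 and 86.9% on chromosome 16, while on chromosomes 13, 15 and 18 it was 16.2%, 18.03% and 21.6%. Chromosomes 16, 17 and 19 also had few closed regions in VAL at 3 h, with 8, 5 and 2. Chromosomes 13 and 18 had 50 and 33 opened against 62 and 56 closed regions in VAL. Chromosome 15 had 11 opened and 50 closed regions in OCI-LY3 and 67 and 15 in VAL, and chromosome 22 had 17 opened and 20 closed regions in OCI-LY3 and 248 and 2 in VAL. Chromosome 19 held 13.2% of the opened regions in OCI-LY3 and 15.5% in VAL. This difference passed Fisher's exact test (adjusted p = 0.0389, odds ratio 0.828), but not with neighbouring regions merged (0.925) or at promoters alone (0.877).

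Several loci opened or closed at more than 1 place. Regions within 10000 bp of each other formed 1727 opened and 1601 closed loci, of which 112 and 66 held more than 1 region. ITPKB had the most opened regions of any protein-coding gene, 5, all in intron 2 between chr1:226840628 and 226921894, and none in the VAL list. Of all opened distal regions 21.7% were also opened in VAL at 3 h. HDAC7, which encodes a class IIa histone deacetylase of lymphoid cells, had 4 across chr12:48201494-48229765, of which 3 were opened in VAL. On chromosome 7, 4 opened regions within 8186 bp (chr7:150777160-150785345) covered the promoters of FASTK, TMUB1 and AGAP3. RBM6, GLB1L, MOB3A and ARHGAP45 had 4 each.

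Closed regions accumulated at PAX5 and NFKB1. PAX5 had 6 closed regions and no opened one. The one at chr9:36831155-36832429 lay past the end of the gene, those at chr9:36872880-36874040 and chr9:36949249-36950028 in introns 8 and 6, and 3 lay between introns 4 and 5, at chr9:36993734-36994857, chr9:37001623-37003225 (over exon 5) and chr9:37004047-37005425. None of the 6 was closed in VAL at 3 h, where 16.5% of all regions closed in OCI-LY3 were also closed. NFKB1, which encodes the NF-kB subunit p105/p50, had 4 within 11346 bp at the 3′ end of the gene (chr4:103530798-103542143), 1 in intron 19, 1 over the last exon and 2 past the end, and again none was closed in VAL. BACH2 had 3 closed regions in introns 3 and 4, and 1 opened region in intron 4 (chr6:90834749-90835946). EBF1, POU2AF1 and RUNX3 had 2 each, and FOXP1 and BCL11A 1 each. Of the 28 B-cell receptor signalling genes 8 (28.6%, against 12.3% of all genes) had an opened and 6 (21.4%, against 7.15%) a closed region in or near them. BTK and LCK, which encode tyrosine kinases, were opened at a TSS, as was CD79B. In this list closed regions lay in introns of LYN, SYK and PIK3AP1 and past MALT1. MYC had 2 closed regions (chr8:128737537-128738913, with its midpoint at -10252 bp from the TSS, and chr8:128753764-128755378, overlapping exon 3), and its promoter was in neither list. AUTS2, a long gene of 1195 kb, had 7 closed regions, and AFF3 and CACNA1C had 6 each. These genes are long, and the number of regions was not adjusted for length.

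Closed regions also lay just past the ends of genes, a pattern chosen after it was seen in these data. Of the 1424 closed distal regions, 257 (18.05%, 16.1 to 20.1) had their midpoint within 10000 bp past the annotated end of the nearest protein-coding gene and 37 (2.60%) within 10000 bp before its start. Distal regions leave out those within 1000 bp of a TSS, which lowers the share before starts by definition. The groups are therefore to be compared with each other on the same side. Of the 778 opened distal regions the shares were 3.60% and 3.98%, and of the other listed distal regions 5.49% and 4.04%. In VAL at 3 h, 10.7% (9.30 to 12.3) of closed distal regions lay past a gene end and 3.62% before a start. The median distance past the end was 2768 bp, and 171 of the 257 midpoints were within 4000 bp. The 257 regions belonged to 239 genes, 1.19% of protein-coding genes.

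The genes with such a region included ACTB (beta-actin, chr7:5562639-5563317), LDHA and ENO1 (glycolysis), PTMA and NPM1 (nuclear and nucleolar proteins), HSPA8 and HSPD1 (chaperones), TPT1, which had 2, and B2M. Of the SR and hnRNP splicing factors 6 of 38 had such a region, HNRNPA1 (chr12:54681566-54683401), HNRNPDL, HNRNPF, HNRNPK (chr9:86579160-86581449), SRSF7 and TRA2B. Of the ribosomal proteins 8 of 88 did, with 2 regions at RPS12 (chr6:133140034-133142748 and chr6:133143686-133144573). Lymphoid genes were there too, with CD74, CD38, CD83, MS4A1 (CD20, chr11:60239059-60239969), PTPRC (CD45), BCL6 (chr3:187436434-187438467), PAX5 and NFKB1. Of the B-cell transcription factors 5 of 30 did. The genes outside the lists were named after their values were seen. Of these genes 14 of 239 (5.86%) had an opened promoter, near the 5.92% of all protein-coding genes. NFKBIZ, SRSF7 and TRA2B were among those 14, with an opened promoter and a closed region past the end, as at NFKBIZ (opened chr3:101567577-101569621 and closed chr3:101581378-101583438), which encodes an NF-kB cofactor.

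**Figure D4:**
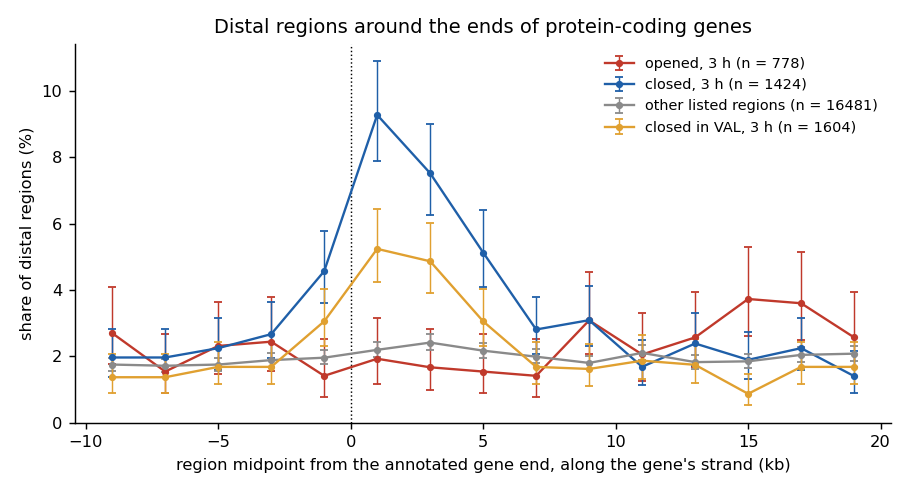
Share of distal regions (%) with the midpoint in each 2000 bp bin around the annotated ends of protein-coding genes, positive values lying past the end, for opened, closed and other listed regions and for regions closed in VAL at 3 h, with 95% Wilson intervals. A region near several gene ends counts for each; closed OCI-LY3 regions reach 9.27% in the first bin past the end, where opened regions have 1.93%.

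Closed promoters were few. Of the 253 closed promoter regions, 52.96% were near the TSS of a protein-coding gene and 28.9% near that of a long noncoding RNA but no coding gene, against 89.3% and 6.61% of opened ones. A canonical TSS of a coding gene on each strand lay in 153 of the 1074 opened promoter regions (14.2%), in 5.69% of other listed promoter regions and in none of the closed ones. Among the lists only GPR183, which encodes a receptor that guides B cells in lymphoid tissue, had a closed promoter (chr13:99958550-99960225). Outside the lists, named after their values were seen, the interferon-induced genes IFIT1 (chr10:91151742-91153261), IFIT5 (chr10:91173496-91175370) and RTP4 (chr3:187085167-187086937) were closed at the TSS, and a 519 bp region just upstream of IFNB1 (chr9:21078570-21079088) closed as well. None of these 4 regions was listed in VAL at 3 h, where 13.8% of all closed promoter regions were also closed. The IFIT5 region was closed in VAL at 8 h. ID1 and HES6, which encode helix-loop-helix proteins, and SMAD6, an inhibitor of BMP signalling, were further closed promoters.

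Over the 703 opened promoter regions that held a single canonical coding TSS, the midpoint lay a median of 117 bp past the TSS (quartiles 3 and 248 bp), and past it in 75.1%. For other listed promoter regions the median was 75 bp (quartiles -73 and 221) and the share 63.5%.

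The motif content of promoter and distal regions was compared separately. Each motif was searched on both strands in the central 200 bp of every region, and a match is a string of letters and not evidence of binding. In opened promoters the ETS motif CCGGAAG was present in 14.2% of 1074 windows (12.3 to 16.5), against 7.61% of other listed promoter windows, a ratio of 1.87 (95% interval 1.58 to 2.22). The YY1 motif AAGATGGCG gave 3.07% against 1.67% (ratio 1.84, 1.25 to 2.71) and the motif TGACGTCA 1.77% against 0.944% (1.87, 1.12 to 3.13). Promoters opened in VAL at 3 h had similar shares, 13.1% for the ETS, 3.36% for the YY1 and 1.68% for the TGACGTCA motif. The SP/KLF motif GGGCGGGG gave 19.5% and 19.9%. Median GC content was alike, 67.5% and 66.5%. The ETS motif lay at 32 promoters of the listed genes, among them JUNB, INTS3, MED8, RPL30 and HSF1. In closed promoters it was found in 1.58%.

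In opened distal regions the E-box CAGGTG was present in 314 of 778 windows (40.4%, 37.0 to 43.8), against 18.6% of the 1424 closed distal windows and 22.0% of the 16481 other listed ones, a ratio of 1.84 (1.68 to 2.01) to the latter. In VAL the opened distal regions had it in 33.2% of 1579. At least 2 copies stood in 15.9% of opened distal windows, against 3.84% of the other listed ones. Along the region it was most frequent in the 100 bp on each side of the midpoint, 24.7% of opened regions each, and fell to 14.3% and 15.6% at 400 to 500 bp, where closed regions had 10.0% and 9.76%. The related E-box CAGCTG was found in 19.7% of opened, 11.7% of closed and 13.7% of other distal windows, and the MYC-type E-box CACGTG in 3.21%, 3.09% and 3.16%. GC content moved with the motif, with a median of 49.5% in opened and 45.0% in other distal windows, and combined over 5 classes of GC content the ratio was 1.60. CAGGTG after TA is common in repeated sequence; without such matches the shares were 37.0% and 20.6%. Of the 169 opened distal regions that were also opened in VAL, 53.3% (45.7 to 60.6) held CAGGTG, and of the other 609, 36.8% (33.0 to 40.7). Genes with such a region in or near them included ITPKB, BCL2L1, IRF8, CXCR5, DTX1, ETV6, MEF2C, PIK3CD, HDAC7 and TCF3, the gene of an E protein itself.

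Closed distal regions held lymphoid motifs at rates near those of other distal regions. The IRF motif AANNGAAA was present in 31.9% of them (29.5 to 34.3), against 28.5% of other listed and 21.1% of opened distal windows. The PU.1 motif GAGGAAGT gave 4.21%, 3.30% and 1.93%, the AP-1 motif TGANTCA 7.65%, 7.17% and 6.04%, and the octamer ATGCAAAT 4.21%, 3.31% and 5.27%. The CTCF motif, with 1 mismatch allowed, was found in 3.51% of closed, 4.98% of other and 1.54% of opened distal windows.

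**Figure D5:**
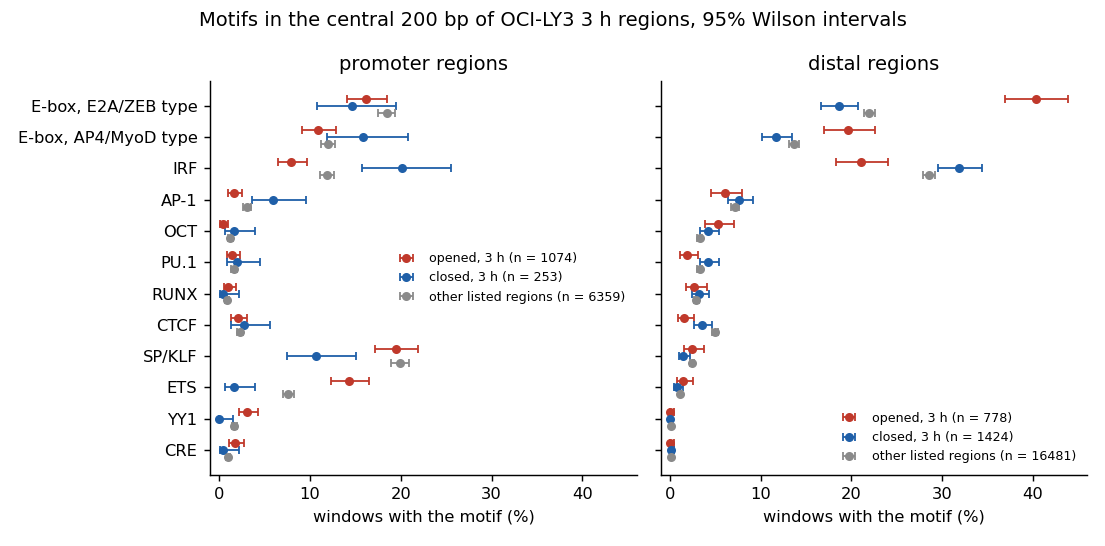
Share of 200 bp windows (%) with each motif, at promoters (left) and in distal regions (right), for opened, closed and other listed regions, with 95% Wilson intervals. The E2A/ZEB type is CAGGTG, which reaches 40.4% in opened distal regions, and the AP4/MyoD type is CAGCTG; the ETS motif is in 14.2% of opened and 7.61% of the other listed promoters.

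The response of OCI-LY3 was set beside that of VAL at 3 h, which has its own 0 h libraries. Equal coordinates were opened in both lines for 729 regions, 39.4% of the OCI-LY3 list and 20.6% of the 3545 in VAL, and closed in both for 277, 16.5% and 15.5%. Opened promoter regions were shared more often than opened distal ones, 560 of 1074 (52.1%, 49.2 to 55.1) against 169 of 778 (21.7%, 18.97 to 24.8). The odds ratio was 3.93 by Fisher's exact test, with an adjusted p of 8.71e-41, and promoters had the larger share on 20 of 22 autosomes. For closed regions the shares were 13.8% of 253 at promoters and 16.99% of 1424 elsewhere, which missed the threshold (adjusted p = 0.233 by Fisher's exact test, odds ratio 0.784) unless promoters were taken from protein-coding genes alone (0.343). The share of opened regions at promoters was 58.0% in OCI-LY3 and 55.5% in VAL, a difference of 2.53 points that missed the threshold (Fisher's exact test, adjusted p = 0.0974). No region opened in OCI-LY3 was closed in VAL, while 14 regions closed in OCI-LY3 were opened in VAL, 4 of them on chromosome 22. Regions present in both lines included the promoters of GAPDH, EZR, JUNB and NACC1 among the widest opened ones. Of the 10 widest closed regions, at genes such as PLXNC1, FLT3 and SNX10, none was closed in VAL at 3 h.

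The 8 h comparison of OCI-LY3 uses the same 0 h libraries, so its lists are given only beside named regions. The 5 ITPKB regions, the BCL2L1 region named above, and the regions of JUNB, MCL1, CDKN1A and both of IRF8 were opened at 3 h and listed as opened at 8 h, and both MYC regions were listed as closed at both times. At PAX5, 2 of the 6 regions closed at 3 h were listed as closed at 8 h, and at NFKB1 2 of the 4. The promoters of RPL30, RPL36A, RPL37, MED17 and TRA2B were opened at 3 h and in neither list at 8 h. The share of all 3 h regions listed again at 8 h is not given here. These examples therefore cannot be set against the lists as a whole.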

How the data were processed

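ATAC-seq libraries of OCI-LY3 and VAL were grouped by line and time from the labels. Per the labels and the study's methods, the authors mapped reads on hg19 using Bowtie2, called peaks in each sample with MACS2, built a consensus set, counted reads with bedtools and took regions past limits of fold change and adjusted p-value in DESeq2. For the ATAC-seq data, tool versions and whether the model held the library protocol are not given in the sources used here. The authors deposited 8 lists of start and end coordinates in bp, with 0 columns of per-sample values, so depth is unknown. Coordinates were compared with GRCh37 and annotated with GENCODE 44 lifted to that build. Distances to TSS and gene ends, counts over 35 gene lists, matches of 18 motifs in central windows of 200 bp, Wilson intervals (counting error only) and two-sided Fisher's exact tests, adjusted over 5 tests, were computed with Python 3.11.15, scipy 1.17.1 and pysam 0.24.0, and tested on simulated data. Alternatives changed the promoter distance, the TSS set, the motif window, the background and chromosome 19. Named genes were list members with a region, genes with the most regions, and genes at the widest regions and densest groups. Members and lists were chosen with earlier results of these data known. Some genes and sequences are not reported here.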

Additional observations from a re-analysis of the deposited data

Results flagged for a closer look

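The share of opened regions on chromosome 19 differed between the lines at 3 h by a test of the difference itself, with 13.2% of 1852 regions in OCI-LY3 and 15.5% of 3545 in VAL. The odds ratio was 0.828 (adjusted p = 0.0389 by Fisher's exact test over regions). The test covers counting error only, since no value per library was given.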

How the results depend on the processing

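No paired analysis was possible because the lists hold coordinates only, with no value per library, so leaving out a replicate could not be tried either. Of 68 alternative values 55 stayed on the same side of the threshold, moved by less than their counting interval or, for counts, by less than 1.5 times. The promoter difference between opened and closed regions kept its direction and its call, with odds ratios of 6.01 to 12.4. The chromosome 19 difference between the lines missed the threshold with regions within 10000 bp merged (odds ratio 0.925) and at promoters alone (0.877). With the TSS of protein-coding genes only, closed promoter regions were shared with VAL less often than other closed regions (0.343). The ETS ratio was 1.48 over whole regions. The CAGGTG ratio was 1.65 in 400 bp, 1.32 over whole regions and, chosen after seeing the data, 1.60 within 5 GC classes. Against genes with a promoter region in any list, also chosen after seeing the data, the share with an opened promoter exceeded the background 2.31 times for ribosomal proteins, 2.01 for mitochondrial ribosomal proteins, 2.01 for proteasome subunits, 2.37 for chromosome 19 zinc finger genes and 2.56 for pausing factors with Integrator, against 4.60, 3.90, 3.87, 3.31 and 4.73 over all genes. Closed regions past gene ends were 13.6% within 5000 bp and 20.7% within 20000 bp, limits set after seeing the data. The causes were not tested. Depth is unknown, so a region absent from a list may be unchanged or too weakly covered to be called.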
